A study of Drosophila melanogaster with 12 samples.

Results

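The genes described here encode the subunits of the proteasome in the fruit fly Drosophila melanogaster. They were taken as the probe sets whose only platform gene symbol begins with Prosalpha, Prosbeta, Rpn or Rpt followed by a number, which gave 41 probe sets for 39 of the 10844 genes on the array. For the 2 genes with 2 probe sets the one with the higher mean log2 signal over the 12 arrays was used. Of the 39 genes, 21 belong to the core particle and 18 to the regulatory particle.

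The proteasome degrades proteins tagged with ubiquitin. Its barrel-shaped core particle is built of stacked rings of alpha subunits, which gate the entrance, and beta subunits, some of which carry the peptide-cutting sites. The regulatory particle caps the barrel: its base holds a ring of Rpt ATPases that unfold the substrate and Rpn subunits that bind ubiquitin, and its lid removes the ubiquitin chain. In the ovary, as in other tissues, it turns over regulatory and damaged proteins.

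RNA was measured in cells from ovaries of adult females, with an age of 2 to 7 days where the labels give one. All 4 groups carried slbo-Gal4, which drives UAS-mCD8-GFP in the follicle cells that turn on slbo, among them the migrating border cells. Cells displaying the CD8 tag were pulled out with magnetic beads and are called migratory cells below, and the remaining ovarian cells are called nonmigratory cells. Wild-type (WT) flies carried slbo-Gal4, UAS-mCD8-GFP/+, and the mutant flies carried the alleles slboe7b and slboLy6 of slbo, the transcription factor gene required for border cell migration, as slbo-Gal4, slboe7b/UAS-mCD8-GFP,slboLy6. Each combination of genotype and fraction had 3 arrays, which the submitters describe as biological repeats. The label of 1 slbo nonmigratory array gives no genotype and that of another gives no age or tissue, and both were placed by their titles. The fractions are defined by the driver and the beads, so the migratory fraction is meant to hold cells in which the slbo driver is active. They were not chosen for moving, and cells of other types can be among them.

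Signals were scaled alike on all arrays, with trimmed means between 150.0263 and 150.0304, and arrays of a group correlated at 0.924 to 0.957 over log2 signals. The slbo probe set was lower in mutant than in WT migratory cells, with a log2 change of -2.09 (limma adjusted p = 0.0135). The sum of 7 markers of border and other slbo-expressing follicle cells, slbo itself among them, was 1425 to 1449.9 in WT migratory cells. It was 826.7 to 1028 in WT nonmigratory cells, and 883.5 to 1010.9 and 881.1 to 1037 in the mutant fractions. From nonmigratory to migratory cells all 6 tested had positive changes in WT, with only sn called, at 0.87 (limma adjusted p = 0.0230). In the mutant 2 changes were positive and 4 negative, and none was called. These markers thus did not show more such cells in the migratory fraction of the mutant. The polar cell gene upd1 was not above background in any group. The sum of 8 follicle cell markers was 94452 to 114920 in WT migratory and 106240 to 112930 in WT nonmigratory cells. It was 87900 to 107983 in slbo migratory and 83383 to 92239 in slbo nonmigratory cells. Of these, tj was lower in mutant than WT migratory cells, at -1.31 (limma adjusted p = 0.0204). Cp36 was lower in mutant nonmigratory cells, at -0.82 (adjusted p = 0.0315). The sum of 12 germline markers was 1358.3 to 2095.9 in WT migratory and 1125.3 to 1510.8 in WT nonmigratory cells. In slbo migratory and nonmigratory cells it was 1836.4 to 2243.7 and 1615.6 to 1837.6. No germline marker was called between genotypes in either fraction. Each of these follicle cell and germline markers except bam was above background in at least 1 group. The sum of 15 gut markers was 2528 to 7321 in WT migratory, 2304 to 4965 in WT nonmigratory, 19968 to 28502 in slbo migratory and 9987 to 13205 in slbo nonmigratory cells. That of 7 muscle markers was 2594.8 to 4514.3 in WT migratory and 1390.1 to 3405.4 in WT nonmigratory cells. In the slbo fractions it was 3770.3 to 4666.5 and 2120.1 to 3685.8. From nonmigratory to migratory cells all 6 muscle markers tested had positive changes in each genotype, none of them called. Averaged over genotypes 1 was called higher, where 8.05% of all features were. Neither of 2 fat body markers was called. Of 6 hemocyte markers measured, Hml, NimC1, Sr-CI and eater were not above background in any group, while srp and Pxn were tested and Pxn was higher in the mutant in both fractions, at 1.48 (adjusted p = 0.0438) and 1.66 (adjusted p = 0.0389). The sum of these 6 was 141.2 to 173.9 in WT migratory, 81.1 to 148.2 in WT nonmigratory, 178.1 to 260.5 in slbo migratory and 183 to 201.2 in slbo nonmigratory cells. Of 8 testis markers, can, sa, nht, dj and twe were not above background in any group, and Mst84Da, Mst87F and bol were tested, with bol called in the average over genotypes at 0.44 (adjusted p = 0.0356). The 5′ to 3′ signal ratio of the GAPDH control, a measure of RNA length and labelling, was 0.0854 ± 0.00839 in WT migratory and 0.175 ± 0.0217 in WT nonmigratory cells, and 0.119 ± 0.0288 and 0.165 ± 0.0272 in the slbo fractions (SD, n = 3 arrays). In such bulk fractions, fewer cells of a type and less RNA per cell cannot be told apart.

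The members fell into 26 canonical subunit genes and 13 paralogs, whose symbols carry T or R after the number. All 26 canonical genes, 12 of the core and 14 of the regulatory particle, were above the absent bacterial control probe sets on all 12 arrays. Their lowest single value, 170.4 for the base scaffold subunit gene Rpn2, lay above the highest absent-control signal of any array, 88.4. Of the paralogs, 10 were not above background in any of the 4 groups: Prosalpha4T1, Prosalpha4T2, Prosalpha6T, Prosbeta2R1, Prosbeta2R2, Prosbeta4R1, Prosbeta4R2, Prosbeta5R1, Rpn12R and Rpn13R. In fruit flies such T and R genes are known mainly from the testis. Of the 8 testis markers in the same libraries 5 were at background and 3, Mst84Da, Mst87F and bol, were not, with sums over the 8 of 413.3 to 653.1 across the groups.

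The remaining 3 paralogs passed the filter on low signals, but at levels near background. Prosalpha3T gave signals of 9.60, 27.8 and 24.4 in WT migratory cells and of 33.3, 52.7 and 46.8 in slbo migratory cells, and its group mean exceeded background in 1 group of 4. Rpt3R ranged over 49.6, 64.3 and 47 in slbo migratory and 7.10, 32.2 and 25.4 in slbo nonmigratory cells and was above background in 2 groups. Rpt4R had group means of 38.3 to 51.2, above background in all 4 groups, though single signals exceeded their own array's background on 5 of 12 arrays. None of these 3 was called in any comparison, with values such as 1.18 (adjusted p = 0.108) for Rpt3R and 0.93 (adjusted p = 0.407) for Prosalpha3T in the slbo fraction and slbo migratory genotype comparisons. Prosalpha1 shares a probe set with Prosalpha1R and was not used here, and Prosbeta1, Rpn9, Rpn10, Rpt1, Rpt6, Rpt6R and Prosbeta5R2 were not analysed here.

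**Figure D1:**
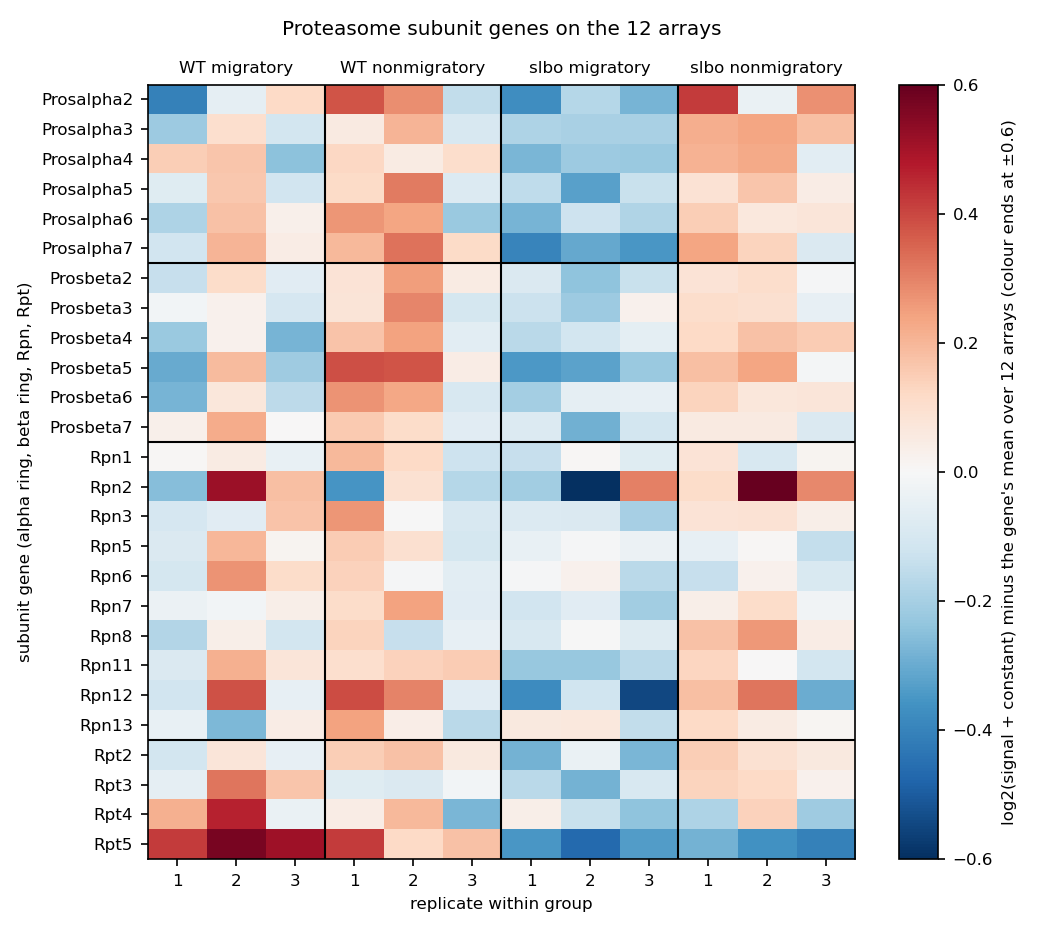
The 26 canonical subunit genes (lines, core particle above the regulatory particle) on the 12 arrays (columns, by group), each coloured by its log2 signal minus that gene's mean over all arrays. The 3 slbo migratory arrays have 0 to 1 core genes and 1 to 3 regulatory genes above their own mean, and Rpt5 changes colour between the WT and slbo arrays.

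The first question was how subunit transcripts differed between migratory and nonmigratory cells of the same ovaries. In slbo mutants, Prosalpha3 and Prosalpha7, 2 subunits of the alpha ring, fell in the migratory fraction. In WT no subunit gene was called. Averaged over both genotypes, 5 core particle genes fell: Prosalpha2, Prosalpha3, Prosalpha7, Prosbeta4 and Prosbeta5, the last being the subunit with the chymotrypsin-like cutting site. No regulatory particle gene was called in any of these 3 comparisons. Of all features 5.16% were called lower in the mutant and 9.85% in the average. Of features as bright as the canonical genes 17.9% and 25.4% were. Calls were made with limma on log2(signal + 7.50) at a Benjamini-Hochberg adjusted p below 0.05 over 8755 features, of which 29 were members.

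Prosalpha7 had signals of 673, 716 and 697 in slbo migratory cells against 1048, 975 and 835 in slbo nonmigratory cells. The 3 migratory values lay below all nonmigratory values. The means were 695 ± 21.2 and 953 ± 108 (SD, n = 3), a log2 change of -0.44 (SE 0.123, limma adjusted p = 0.0356). In WT the gene gave 819, 1024 and 918 in migratory and 1018, 1116 and 964 in nonmigratory cells. Those groups overlapped, and the log2 change was -0.17 (adjusted p = 0.495).

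Prosalpha3 gave 1197, 1186 and 1189 in slbo migratory and 1584, 1602 and 1542 in slbo nonmigratory cells. The migratory replicates were close to each other and well below the other fraction, with means of 1191 ± 5.53 and 1576 ± 31.1 (SD, n = 3). The log2 change was -0.40 (SE 0.111, limma adjusted p = 0.0355). In WT the signals were 1168, 1459.6 and 1262 against 1414, 1571 and 1272, with overlapping groups and a log2 change of -0.13 (adjusted p = 0.572).

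The 2 calls in the mutant stood beside a background of 5.16% of all features called lower, and of 17.9% among the 1243 features whose mean log2 signal lay within the range of the canonical subunit genes. The 2 of 29 members called are thus near the share over all features and below that of equally bright ones. The call of Prosalpha3 was lost without any 1 of the 6 mutant arrays (adjusted p = 0.0729 to 0.112), and that of Prosalpha7 without any 1 of them other than slbo nonmigratory replicate 3 (0.0818 to 0.157). In a fit with the GAPDH ratio as a covariate neither was called, with Prosalpha3 at an adjusted p of 0.292, and the part of RNA length in these values was not tested further.

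Counts without a test of each gene gave a wider pattern in the mutant. In 16 of the 26 canonical genes all 3 slbo migratory signals lay below all 3 slbo nonmigratory signals, 10 of 12 core genes and 6 of 14 regulatory genes. Over all features tested 14.8% did so, and among the 1243 features as bright as the canonical genes 31.1%. The 10 core genes were the 6 alpha subunit genes together with Prosbeta2, which carries the trypsin-like site, Prosbeta4, Prosbeta5 and Prosbeta6. The 6 regulatory genes were Rpn3, Rpn7 and Rpn8 of the lid, the lid deubiquitinase Rpn11, and the ATPases Rpt2 and Rpt3. No canonical gene had the opposite order, where 15.0% of features did. The 3 slbo migratory arrays were also those with the highest gut marker sums, 19968 to 28502, and the part of that in the subunit signals was not tested.

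In WT the same fractions overlapped for nearly every subunit. None of the 29 tested members was called by limma, where 9.17% of all features were (4.91% lower), and 4 had an unadjusted p below 0.05. None had migratory values entirely below the nonmigratory ones (12.7% of features) and 1, Rpt5, had them entirely above (12.4% of features). Among the 1243 features as bright as the canonical genes, 295 lay entirely below and 285 entirely above, and 191 were called lower. In each fraction 1 array stood apart from the other two: 11 of 12 core genes were above their own mean on WT migratory replicate 2, and 4 on WT nonmigratory replicate 3. Without WT migratory replicate 2, limma called 2 members lower, Prosbeta4 and Prosbeta5.

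**Figure D2:**
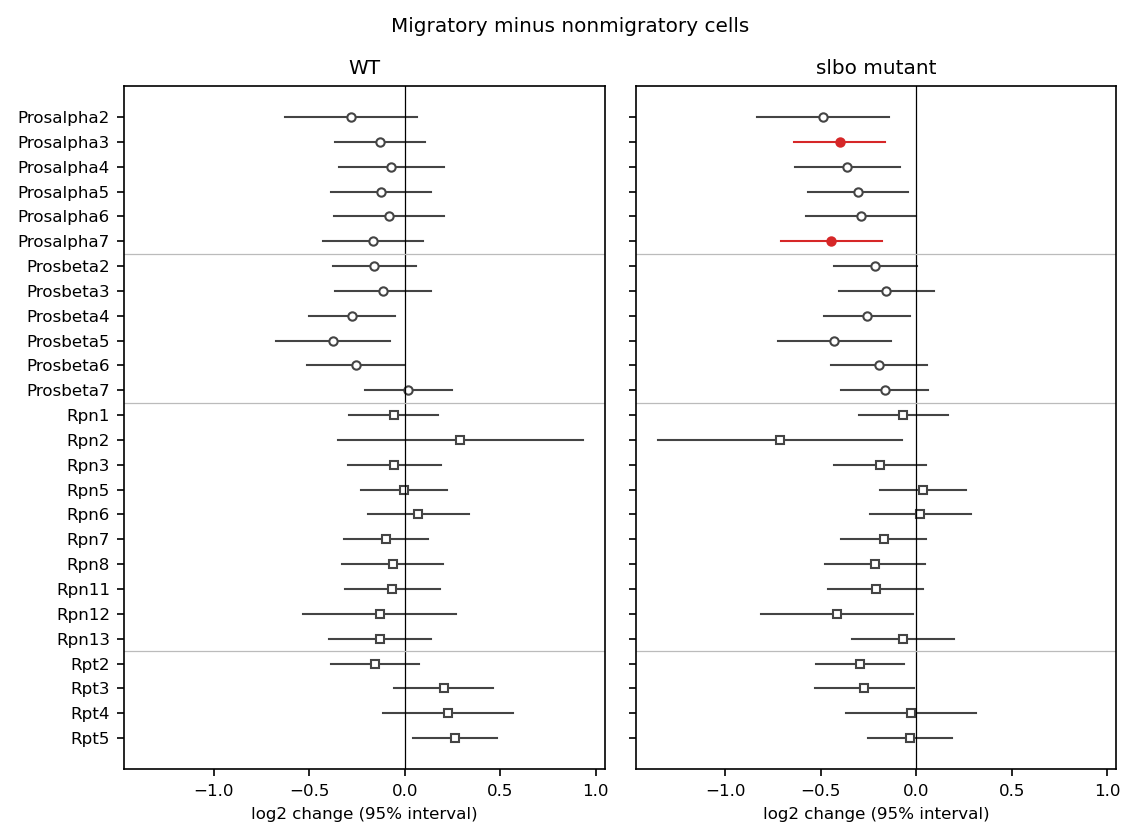
Log2 change from nonmigratory to migratory cells (horizontal axis) of each canonical subunit gene in WT and in slbo mutants, as the limma estimate with its 95% interval. Circles are core and squares regulatory particle genes, and filled red symbols are called genes: 0 in WT, and Prosalpha3 and Prosalpha7 in the mutant.

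The averaged comparison used all 12 arrays. Of the 29 members tested, 5 fell and none rose, beside backgrounds of 9.85% lower and 8.05% higher over all features. The called genes were 5 of the 12 canonical core genes and 0 of the 14 regulatory genes, for which the count at an unadjusted p below 0.05 was 1, Rpt2 at -0.23 (adjusted p = 0.0527). Among features as bright as the canonical genes 25.4% were called lower. A difference between the particles in the share of called genes was not tested.

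Prosbeta5 fell with an averaged log2 change of -0.40 (SE 0.0983, limma adjusted p = 0.00973), 1.32-fold. Its signals were 1099.8, 1548 and 1170 in WT migratory and 1773, 1764 and 1400.4 in WT nonmigratory cells, and 1067, 1086 and 1163 and 1538, 1598 and 1345 in the slbo fractions. WT migratory replicate 2 was the single migratory array above a nonmigratory one of its genotype. Prosbeta5 remained called without any 1 array, but with the GAPDH ratio as a covariate its change was not called (adjusted p = 0.642).

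Prosbeta4, a structural beta ring subunit, gave 3158, 3751 and 3039 in WT migratory and 4156, 4366 and 3531 in WT nonmigratory cells, and 3297, 3416 and 3544 and 4002, 4162 and 4099 in the slbo fractions. The mutant groups did not overlap and the WT groups did. Its averaged log2 change was -0.27 (SE 0.0752, adjusted p = 0.0223), with like values in WT, -0.28 (adjusted p = 0.132), and in the mutant, -0.26 (adjusted p = 0.159). Prosalpha2, an alpha ring subunit, had WT signals of 2052, 2626 and 2959 against 3543, 3308 and 2453 and mutant signals of 2098, 2420 and 2245 against 3644, 2644 and 3288. The averaged log2 change of Prosalpha2 was -0.39 (SE 0.115, adjusted p = 0.0294), and those of Prosalpha3 and Prosalpha7 were -0.27 (adjusted p = 0.0289) and -0.31 (adjusted p = 0.0235).

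With the GAPDH ratio as a covariate, and without the signal trend in the variance prior, none of the 5 averaged calls held, and under median centring only that of Prosbeta5 did. With the covariate the averaged log2 change was -0.13 for Prosalpha2, -0.15 for Prosalpha3, -0.06 for Prosalpha7, -0.25 for Prosbeta4 and -0.28 for Prosbeta5. The calls other than that of Prosbeta5 also depended on single arrays. Prosalpha2 was not called without WT migratory replicate 1, WT nonmigratory replicates 1 or 2, slbo migratory replicates 1 or 3, or slbo nonmigratory replicates 1 or 3 (adjusted p = 0.0556 to 0.0825). Prosalpha3 was not called without WT migratory replicates 1 or 3, WT nonmigratory replicate 2, any slbo migratory replicate, or slbo nonmigratory replicates 1 or 2 (0.0507 to 0.0775). Prosalpha7 lost its call without WT migratory replicate 1, WT nonmigratory replicate 2, slbo migratory replicate 1 or slbo nonmigratory replicates 1 or 2 (0.0507 to 0.0710), and Prosbeta4 without WT migratory replicates 1 or 3, WT nonmigratory replicate 2 or slbo nonmigratory replicate 2 (0.0525 to 0.0637). The number of members called ranged from 1 to 9 over these fits, with 9 without WT migratory replicate 2.

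The uncalled core genes had averaged values on the same side of 0. Prosalpha4 was at -0.22 (adjusted p = 0.124), Prosalpha5 at -0.21 (adjusted p = 0.106) and Prosalpha6 at -0.19 (adjusted p = 0.210). Prosbeta2 was at -0.19 (adjusted p = 0.0874), with an interval of -0.34 to -0.03, and Prosbeta3 was at -0.14 (adjusted p = 0.302). Prosbeta7, nearest to 0 of the core genes, was at -0.07 (adjusted p = 0.569). Prosbeta6 was at -0.23 (adjusted p = 0.0767), but its second, dimmer probe set, with signals of 33.3 to 135, rose, at 0.85 (adjusted p = 0.0164). The second probe set of Prosalpha7 stayed near background, with signals of 4.6 to 25.9.

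For the regulatory particle, the ubiquitin receptors Rpn1 and Rpn13 had averaged log2 values of -0.06 (adjusted p = 0.648) and -0.10 (adjusted p = 0.512), with intervals of -0.23 to 0.10 and -0.29 to 0.09. The deubiquitinase Rpn11 was at -0.14 (adjusted p = 0.289). Among the lid subunits, Rpn12 had the lowest value, -0.28 (adjusted p = 0.180), and Rpn6 the highest, 0.05 (adjusted p = 0.788). Rpn3, Rpn5, Rpn7 and Rpn8 lay between, at -0.12, 0.01, -0.13 and -0.14. The base scaffold gene Rpn2 varied most of all canonical genes, from 170.4 on slbo migratory replicate 2 to 629.8 on slbo nonmigratory replicate 2, so that its value of -0.21 (adjusted p = 0.564) had an interval of -0.66 to 0.24. The ATPase genes spread over both sides of 0, with Rpt2 at -0.23, Rpt3 at -0.03, Rpt4 at 0.10 and Rpt5 at 0.12.

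The core and the regulatory particle were then set side by side on each array. For each gene the mean over the 12 arrays was subtracted from its log2 value, and the centred values were averaged over the 12 core and the 14 regulatory genes. The core mean minus the regulatory mean was -0.11, -0.08 and -0.16 in WT migratory cells and 0.05, 0.15 and 0.01 in WT nonmigratory cells. In the slbo fractions it was -0.08, -0.04 and 0.00 in migratory and 0.13, 0.03 and 0.10 in nonmigratory cells. The highest of the 6 migratory arrays, 0.0025, lay below the lowest of the 6 nonmigratory arrays, 0.0110. That gap is smaller than the within-group SD of this difference, 0.0536. Taken singly, 0 of the 26 canonical genes had all 6 migratory values below or above all 6 nonmigratory values. Of the 8755 features 458 lay below and 261 above. The group means were -0.12 ± 0.0419 and 0.07 ± 0.0724 in WT, and -0.04 ± 0.0413 and 0.08 ± 0.0529 in the mutant (SD, n = 3). The difference is small, and no p-value is given for a mean over chosen genes.

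The particle means themselves showed which arrays were low. In slbo migratory cells both were low, with core means of -0.22, -0.21 and -0.16 and regulatory means of -0.14, -0.18 and -0.16. In WT migratory cells the core means were -0.15, 0.12 and -0.09 and the regulatory means -0.04, 0.20 and 0.07. The higher of these belonged to WT migratory replicate 2 in both particles. The median log2 change of the canonical core genes from nonmigratory to migratory cells was -0.15 in WT and -0.30 in the mutant, and that of the regulatory genes -0.06 and -0.18, beside 0.01 and 0.03 for all features tested. Over the 1243 features as bright as the canonical genes the medians were -0.003 and -0.04. Of the 26 canonical genes, 20 had a negative change in WT, where 48.9% of all features did, and 24 in the mutant, where 47.7% did. Of the 1243 equally bright features 627 had a negative change in WT and 664 in the mutant. The GAPDH ratio was lower in migratory than in nonmigratory cells too, without overlap in WT, so that it and the fraction cannot be told apart there.

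**Figure D3:**
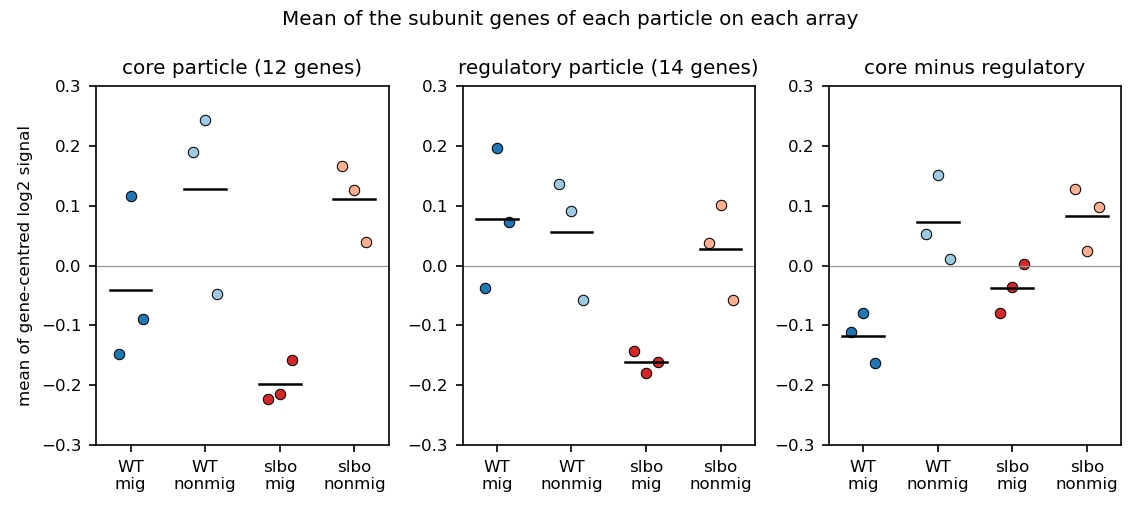
Mean gene-centred log2 signal of the canonical core genes, of the regulatory genes, and their difference (vertical axes) for each array, by group; points are arrays, horizontal bars are group means, and mig and nonmig stand for migratory and nonmigratory cells. The 3 slbo migratory arrays are low in both particles, and in the difference all 6 migratory arrays lie at or below 0.0025 and all 6 nonmigratory arrays at or above 0.0110. The gap between them is smaller than the within-group SD of the difference, 0.0536.

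The second question was how subunit transcripts differed between slbo mutant and WT flies within a fraction. Rpt5, an ATPase of the base, fell in the mutant in both migratory and nonmigratory cells. No other member was called in either comparison. The changes were 1.85-fold in migratory and 1.5-fold in nonmigratory cells.

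Rpt5 signals were 2593, 2875 and 2756 in WT migratory cells and 1515, 1396 and 1531 in slbo migratory cells. They were 2586, 2100 and 2183 in WT nonmigratory cells and 1586, 1499.9 and 1458 in slbo nonmigratory cells. Every one of the 6 mutant arrays lay below every one of the 6 WT arrays. In migratory cells the means were 2741 ± 142 and 1481 ± 73.8 (SD, n = 3), a log2 change of -0.89 (SE 0.104, limma adjusted p = 0.000544). This was 1 call among 29 members, beside 0.800% of all features called lower. In nonmigratory cells the means were 2289.7 ± 260.1 and 1515 ± 65.0, a log2 change of -0.59 (SE 0.104, adjusted p = 0.0185), beside a background of 0.354%.

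The 2 Rpt5 results differed in how they stood up to other settings. In migratory cells the gene was called under each of 23 alternatives, with log2 changes of -1.01 to -0.83 and adjusted p-values of 0.000287 to 0.0243. In nonmigratory cells it was not called without WT nonmigratory replicate 1 or without any 1 of the slbo nonmigratory replicates (adjusted p = 0.0540 to 0.0966), nor with a variance prior that ignores signal level (0.208). A difference between the fractions in the Rpt5 change was not shown by the interaction term, -0.30 (adjusted p = 0.747), with an interval of -0.61 to 0.02. Within a genotype Rpt5 was 0.26 (adjusted p = 0.141) from nonmigratory to migratory cells in WT and -0.03 (adjusted p = 0.899) in the mutant. Those comparisons share arrays with the genotype comparisons. The summed gut markers, given above, were also higher on all 6 mutant arrays than on all 6 WT arrays, and their part in the Rpt5 signals was not tested.

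**Figure D4:**
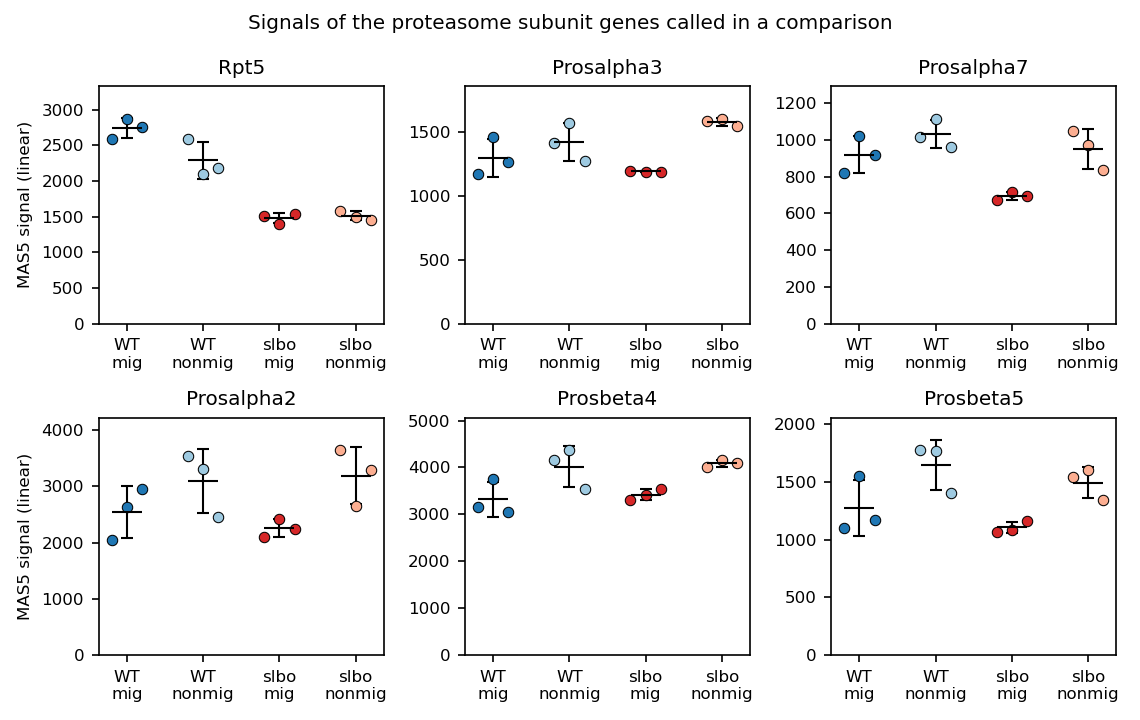
Signals of the 6 called subunit genes (vertical axes from 0, MAS5 signal) in the 4 groups; points are the 3 arrays of a group, with the group mean as a horizontal bar and error bars of 1 SD, and mig and nonmig stand for the fractions. Rpt5 lies between 2100 and 2875 on the WT arrays and between 1396 and 1586 on the slbo arrays, while for each of the 5 core genes the 3 slbo migratory points lie below the 3 slbo nonmigratory points.

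The other ATPase genes measured were not called between genotypes. In migratory cells Rpt3 was at -0.33 (adjusted p = 0.236), Rpt4 at -0.33 (adjusted p = 0.418) and Rpt2 at -0.17 (adjusted p = 0.586). The Rpt3 signals, 648, 842 and 756 in WT and 601, 550.5 and 628 in slbo migratory cells, did not overlap. In nonmigratory cells Rpt3 had the opposite order, 639.7, 632 and 665 in WT against 738, 729.9 and 685 in the mutant, again without overlap, at 0.15 (adjusted p = 0.784). Its interaction value was -0.48 (adjusted p = 0.668), which did not pass the threshold.

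In migratory cells 8 of the 26 canonical genes had slbo signals entirely below the WT ones, where 8.81% of all features and 20.1% of the equally bright features did. They were Prosalpha5, Prosalpha7, Prosbeta7, Rpn7, Rpn11, Rpn12, Rpt3 and Rpt5. Prosalpha7 was at -0.40 (adjusted p = 0.135), Prosbeta7 at -0.24 (adjusted p = 0.332), Rpn11 at -0.27 (adjusted p = 0.326) and Rpn12 at -0.42 (adjusted p = 0.348). Without WT migratory replicate 1 the count was 16 of 26. It was 18 when arrays were centred on their median and 4 after quantile normalization. The shares above hold for the main setting with all arrays. Shares under these other settings are not given here, and groups of fewer arrays separate more easily, so these counts cannot be read against them. The median of all features tested in this comparison was 0.01, and it was -0.11 under median centring and -0.03 under quantile normalization.

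The values ran from that of Prosalpha7 up to 0.05 in the core and from that of Rpt5 up to 0.08 in the regulatory particle. Prosalpha4 was at -0.26 (adjusted p = 0.427), next above Prosalpha7, and Prosbeta4 and Prosbeta6 were at 0.05 (adjusted p = 0.907) and 0.02 (adjusted p = 0.966). The catalytic subunits Prosbeta2 and Prosbeta5 were at -0.12 (adjusted p = 0.692) and -0.19 (adjusted p = 0.650). Of the regulatory genes, Rpn2 was at -0.51 (adjusted p = 0.550), and Rpn8 and Rpn13 were at 0.03 (adjusted p = 0.959) and 0.08 (adjusted p = 0.858). The receptor Rpn1 was at -0.07 (adjusted p = 0.854). The median over the canonical genes was -0.17 for the core and -0.15 for the regulatory particle. It was 0.01 over all features tested and -0.09 over the 1243 features as bright as the canonical genes.

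In nonmigratory cells the subunit genes were near 0. The median was -0.03 for the core and -0.06 for the regulatory genes, and over all 26 canonical genes it was -0.04, turning to 0.01 after quantile normalization. Prosalpha3 was highest of the core genes at 0.16 (adjusted p = 0.743) and Prosbeta5 lowest at -0.13 (adjusted p = 0.857). Rpn2 was at 0.50 (adjusted p = 0.673), with slbo signals of 425, 629.8 and 482 entirely above the WT signals of 306, 420.1 and 349. Besides Rpt5 no canonical gene had slbo values entirely below WT (7.80% of features), and Rpn2 and Rpt3 had them entirely above (7.65%). Rpn8 was at 0.18 (adjusted p = 0.730), Rpn12 at -0.14 (adjusted p = 0.899), Rpn13 at 0.02 (adjusted p = 0.979), Rpt4 at -0.07 (adjusted p = 0.935) and Rpt2 at -0.03 (adjusted p = 0.962).

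**Figure D5:**
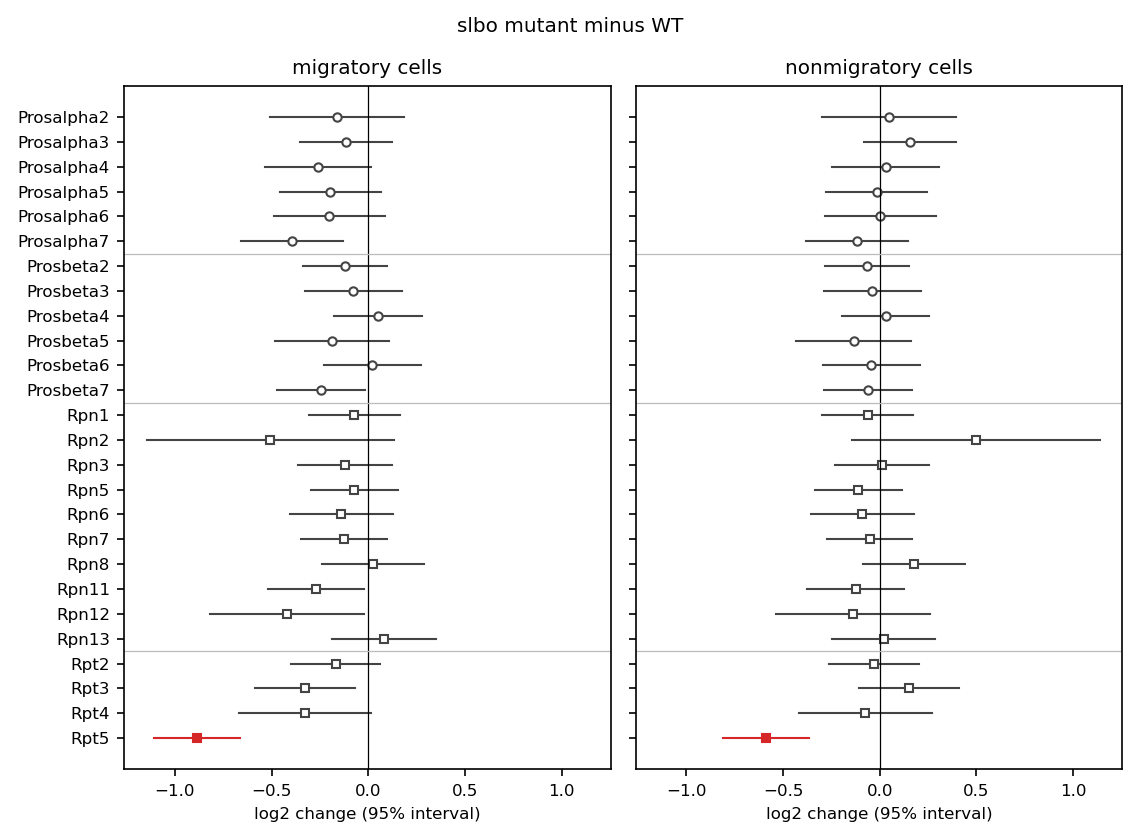
Log2 change from WT to slbo mutant (horizontal axis) of each canonical subunit gene in migratory and in nonmigratory cells, as the limma estimate with its 95% interval. Circles are core and squares regulatory particle genes, and the filled red symbol is the called gene, Rpt5, at -0.89 and -0.59.

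The third question was whether the fraction change itself differed between genotypes. No member was called for the interaction by limma, nor was any of the 8755 features (0.00%); 3 members and 587 features had an unadjusted p below 0.05. The 3 were Rpn2 at -1.0 (adjusted p = 0.700), Rpt3 at -0.48 (adjusted p = 0.668) and the paralog Rpt3R at 1.61 (adjusted p = 0.668). The median interaction was -0.18 for the canonical core genes and -0.14 for the regulatory genes, beside 0.00 over all features. Over the 1243 features as bright as the canonical genes it was -0.05. For Prosalpha3 and Prosalpha7, called in the mutant and not in WT, the interaction was -0.27 (adjusted p = 0.794) and -0.28 (adjusted p = 0.805), so a difference between genotypes was not shown.

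Other genes of the ubiquitin system were described from lists chosen for their roles. Of 8 tested proteasome activators, assembly factors and associated proteins, 1 fell in the migratory fraction of the mutant, where 5.16% of all features did, and none was called in WT, where 9.17% were. With lists of 5 to 14 genes, counts of 0 or 1 are near these shares, and nothing is read from them about a list. The gene was Usp14, a deubiquitinase that docks on the regulatory particle, at -0.67 (adjusted p = 0.0256). Averaged over genotypes, where 9.85% of all features were lower, Usp14 fell by 0.45 (adjusted p = 0.0165) and the lid component Sem1 by 0.38 (adjusted p = 0.0499) on the log2 scale. In WT, Uch-L5 and Pngl had the lowest p, at -0.55 (adjusted p = 0.187) and -0.78 (adjusted p = 0.294).

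Of 9 tested genes for ubiquitin and its conjugating enzymes, none was called within a genotype, with 0 in WT and 1 in the mutant at an unadjusted p below 0.05. Averaged over genotypes the conjugating enzyme vih was lower, at -0.41 (adjusted p = 0.0274). Of 14 tested cullin ligase genes, pic, an adaptor subunit, fell in WT at -0.68 (adjusted p = 0.000623) and Roc1a, the RING subunit, fell in the mutant at -0.71 (adjusted p = 0.00470). Both were called in the average, at -0.43 (adjusted p = 0.000580) and -0.51 (adjusted p = 0.00153). None of 7 tested COP9 signalosome genes was called in either genotype, with CSN8 at -0.56 (adjusted p = 0.0722) in the mutant. Of 5 tested genes for the segregase p97 and its cofactors, p47 was called in the average, at -0.47 (adjusted p = 0.0413), and none within a genotype. None of the genes of these 5 lists was called between slbo and WT in either fraction. With the GAPDH ratio as a covariate, the features called lower were 1 between the WT fractions, 84 between the mutant fractions and 12 in the average. Whether the fraction calls of these lists held in that fit is not given here.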

How the data were processed

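The deposited values are MAS5 signal intensities, 1 per probe set and array on a linear scale, scaled to a common trimmed mean, per the submitters' processing notes and the values themselves; the labels' protocols describe total RNA labelled with biotin. Background correction and probe summary were thus done by the authors. With limma 3.58.1 in R 4.3.3, log2(signal + 7.50), the constant being 5% of the trimmed mean, was fitted with 4 group means (12 arrays, 8 residual degrees of freedom) and a variance prior that follows signal level. A gene with several probe sets was represented by the brightest, and 327 probe sets naming several genes and 44 controls were left out. Features above their array's 40th percentile on at least 3 arrays were tested (8755 of 12040), and a Benjamini-Hochberg adjusted p below 0.05 over these 8755 was a call. Fold changes of low genes are understated on this scale.

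A group counts as above background where its mean exceeds the mean over its arrays of the 95th percentile of 15 absent bacterial control probe sets. A count of genes whose groups do not overlap needs no model. Named genes were the members called in a comparison, the 3 highest and lowest of each particle, the catalytic, receptor, deubiquitinase and ATPase subunits, and the called or lowest-p genes of each list. The members and lists were chosen with earlier results of these data known. The submitters call the arrays biological repeats; the number of arrays limits the precision. The fit was tested on simulated data. Of the member symbols, 0 differed from the RefSeq gene table.

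Alternatives were quantile normalization, median centring, other filters and constants, a prior without the signal trend, the mean over probe sets, the GAPDH ratio as a covariate, a replicate block, fits on 2 groups and leaving out each array. The counts of non-overlapping groups under other scalings, and those among equally bright features, were added after seeing the data.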

Additional observations from a re-analysis of the deposited data

How the results depend on the processing

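No value changed sign while called. Rpt5 in migratory cells was called under all 23 alternatives run, and the other calls were not. Members called, against 0 in WT, 2 in the mutant fraction, 5 in the average and 1 in nonmigratory cells between genotypes, moved as follows. Quantile normalization gave 2 in WT (1 higher, Rpt5, and 1 lower) and 4 in the mutant fraction. Median centring gave 0 in the mutant fraction and 1 in the average. Without the signal trend the mutant fraction, the average and the nonmigratory genotype comparison gave 0. With the GAPDH covariate the mutant fraction and the average gave 0, the mean over probe sets gave 1 in the mutant fraction, and fitting only 2 groups gave 4 there. Leaving out 1 array gave 0 to 2 members in WT, 0 to 3 in the mutant fraction, 1 in migratory and 0 to 1 in nonmigratory cells between genotypes, and 1 to 9 in the average.

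All features called were 803 in WT, 769 in the mutant fraction, 163 (migratory) and 59 (nonmigratory) between genotypes, and 1567 in the average. Without the trend they were 487, 413, 96 and 16 for the first 4 of these; with the GAPDH covariate 4, 158 and 35 for the first 3 and 34 in the average; and with only 2 groups 478 in WT and 104 in migratory cells between genotypes. Leaving out 1 array gave 440 to 938 in WT, 357 to 927 in the mutant fraction, 71 to 180 and 15 to 69 between genotypes, 1250 to 1739 in the average and 0 to 2 for the interaction. Under median centring the share of higher calls went from 46.5% to 57.6% in WT and from 57.1% to 39.8% in migratory cells between genotypes. Non-overlapping canonical genes were 16 to 19 for the mutant fraction and 8 to 16 for migratory cells between genotypes (8 with all arrays) when 1 array was left out, with 4 under quantile normalization and 18 under median centring for the latter. The shares of all features under these settings are not given here, so nothing is read from these counts about the members. The cause of these shifts was not tested, beyond the smaller number of arrays in the fits that leave some out.

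Leaving out 1 array, the core minus regulatory median change was -0.18 to -0.068 in WT, -0.18 to -0.089 in the mutant fraction and -0.17 to -0.072 in the average, and between genotypes -0.075 to 0.062 and -0.0083 to 0.047, with -0.085 to 0.066 for the interaction. The core median itself was -0.22 to -0.10 in WT and -0.12 to 0.04 in nonmigratory cells between genotypes, and the regulatory median -0.08 to 0.03 in WT. Correlations of deviations between arrays with the same replicate number were -0.0784 to 0.0841 over the 4 comparisons of 2 groups. Between the WT fractions they were 0.039, 0.0841 and 0.0325, against a mean of -0.026 for other numbers. There all 6 arrays correlated best with their own number, and between the slbo fractions 0 of 6 did. The labels state no pairing, and whether the numbers pair the WT fractions was not settled. With the replicate block 778, 740, 166, 62 and 1495 features were called in the 5 comparisons as ordered above, and 0, 2, 1, 1 and 5 members.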

Other observations

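The chaperonin CCT, a folding complex of the cytosol that handles actin and tubulin among other proteins, was measured through 8 genes as another large complex of many subunits. In WT, 4 of the 8 fell in migratory cells, where 4.91% of all features did: CCT1 at -0.88 (adjusted p = 0.00159), CCT4 at -0.61 (adjusted p = 0.00135), CCT6 at -0.68 (adjusted p = 0.0102) and CCT8 at -0.84 (adjusted p = 0.00475). Among the 1243 features as bright as the canonical proteasome genes 191 did. In the mutant 7 of 8 fell, all but CCT2, where 5.16% of all features and 17.9% of those as bright as the proteasome genes did, with CCT8 at -0.96 (adjusted p = 0.00261) and CCT5 at -0.85 (adjusted p = 0.0224). The median log2 change of the 8 genes was -0.59 in WT and -0.69 in the mutant, beside -0.09 and -0.22 for the 26 canonical proteasome genes; the difference between the complexes was not tested. None of the 8 was called between genotypes in either fraction by limma, with 0 at an unadjusted p below 0.05 in each. With the GAPDH ratio as a covariate, 4 of all features were called between the WT fractions, 1 of them lower. At most 1 of the 4 CCT calls in WT thus held in that fit. Between the mutant fractions 84 of all features were called lower in it, and CCT values under it are not given here.

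Rpt5 was set beside its neighbours in the order of genes of the RefSeq Release 6 table. Hrd3, the next gene on 1 side, was at -0.70 (adjusted p = 0.0797) between slbo and WT in migratory cells and at -0.25 (adjusted p = 0.769) in nonmigratory cells. RanBP3, the next gene on the other side, was at 0.47 (adjusted p = 0.418) and 0.28 (adjusted p = 0.797). None of the 6 neighbours measured was called in either fraction.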
